A study of Mus musculus with 10 samples.

Results

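The genes of the guided entry pathway, which inserts tail-anchored (TA) membrane proteins into the endoplasmic reticulum (ER), were followed in the hippocampus of Dp5/Dp1 mice. The pathway was taken as 7 named genes (Get1, Camlg, Get3, Get4, Bag6, Ubl4a and Sgta) out of 19938 genes tested on the arrays. Only Get1 lies in a duplicated segment, so it is present in 3 copies in Dp5/Dp1 mice, while the other 6 genes remain in 2 copies. For 6 of the 7 genes the array had a probe set annotated to that gene alone. The single probe set of Ubl4a is also annotated to Gm44504, so Ubl4a was not measured by the rule used here. The genes were chosen by function and not by their values, although earlier results of these data were known.

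The tested mice were 5 Dp5/Dp1 males, compound transheterozygotes that carry the Dp5Yah and the Dp1Rhr duplications of mouse chromosome 16 (Mmu16), both homologous to parts of human chromosome 21. They were compared with 5 male control littermates that carry neither. All mice were 16 weeks old, and total RNA of the whole hippocampus of each mouse went onto 1 Affymetrix Mouse Gene 1.0 ST array. The same controls were shared with mice of the Dp5Yah line and of the Dp1Rhr line alone, neither of which was analysed here. The background is C57BL/6N in the labels and C57BL/6J where the breeding is described.

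TA proteins carry their only membrane anchor at the very end of the chain, so they leave the ribosome before the anchor can be read and have to be targeted afterwards. The co-chaperone SGTA picks up the free anchor. A complex of BAG6, UBL4A and GET4 then passes the protein on to the ATPase GET3, which brings it to the ER membrane. There GET1 (also known as WRB) and CAMLG (GET2) form the receptor that takes GET3 and releases the anchor into the membrane. Among the clients are SNARE proteins of the secretory and synaptic vesicle route, and in mouse sensory hair cells loss of Get1 is known to impair synaptic transmission.

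Titles of the Dp5/Dp1 arrays name only Dp5Yah, so the presence of both duplications was checked first. Over 11 genes of the Dp1Rhr segment other than Get1, the mean log2 level lay between 8.72 and 8.80 on the Dp5/Dp1 arrays, against 8.42 to 8.49 on the control arrays. Over 14 genes of the Dp5Yah segment it lay between 10.46 and 10.50 in Dp5/Dp1 and between 10.04 and 10.11 in controls. Markers of hippocampal neurons were bright on every array, with a mean over 11 genes of 10.97 to 11.01 in Dp5/Dp1 and 10.99 to 11.01 in controls. Markers of neighbouring tissue varied between arrays, and limma called 0 of them between genotypes. Whether the dissections differed was not tested. Choroid plexus markers had a mean over 11 genes of 6.98 to 8.64 in Dp5/Dp1 and 6.87 to 9.02 in controls, and 0 of the 11 had a higher group mean in Dp5/Dp1. Medial habenula markers had a mean over 8 genes of 6.58 to 7.92 in Dp5/Dp1 and 6.52 to 7.05 in controls, with all 8 group means higher in Dp5/Dp1 and the highest arrays being Dp5/Dp1 replicate 2 (7.92) and replicate 5 (7.39). Of these 8 genes, 5 were among the dimmest 40% of all genes. Thalamus markers had a mean over 6 genes of 8.07 to 8.58 in Dp5/Dp1 and 8.39 to 9.16 in controls, and 0 of the 6 had a higher group mean in Dp5/Dp1. In whole tissue a change in the number of cells of a type and a change in RNA per cell cannot be told apart.

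Get1, the triplicated receptor subunit, was the only measured member of the pathway that differed between genotypes by limma. Its RMA log2 levels were 11.19, 11.03, 11.22, 11.18 and 11.15 in Dp5/Dp1 replicates 1 to 5, against 10.67, 10.67, 10.81, 10.78 and 10.66 in control replicates 1 to 5. All 5 Dp5/Dp1 arrays lay above all 5 control arrays, and the lowest of them, replicate 2, was still above the highest control, an order found in 0.762% of all genes. Get1 (chromosome 16, 96145400 to 96157852 in GRCm38, the assembly also called mm10) averaged 11.15 ± 0.08 in Dp5/Dp1 and 10.72 ± 0.07 in controls (SD, n = 5 each). The log2 difference, Dp5/Dp1 minus control, was 0.43 ± 0.04 (SE; limma adjusted p = 0.00107), a rise of 1.35-fold. Its 95% interval, 0.34 to 0.53, lay wholly below log2 of 1.5 (0.58), the value of a rise in proportion to gene copies. A difference below this value was not particular to Get1. The 12 genes of the Dp1Rhr segment that differed by limma, Get1 included, had differences of 0.27 to 0.49, all below that value. The 95% intervals of Cbr3 (0.36 to 0.62) and Psmg1 (0.30 to 0.64) held the value, while those of the other called genes lay below it. The cause was not tested.

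Dp5/Dp1 replicate 2, with the lowest Get1 level of its group, was also the array with the highest medial habenula markers. Controls went the other way, since control replicate 3 had both the highest medial habenula markers (7.05) and the highest Get1 level (10.81) of its group. Dp5/Dp1 replicate 5, second in these markers (7.39), had Get1 at 11.15, the mean of its group. With Dp5/Dp1 replicates 2 and 5 left out, Get1 differed by 0.48 (limma adjusted p = 0.00496, 3 against 5 arrays), and with choroid plexus and medial habenula markers as covariates it was 0.47 (limma adjusted p = 0.00707). When each array was left out in turn it ran from 0.42 to 0.47 and passed in all 10 fits.

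**Figure D1:**
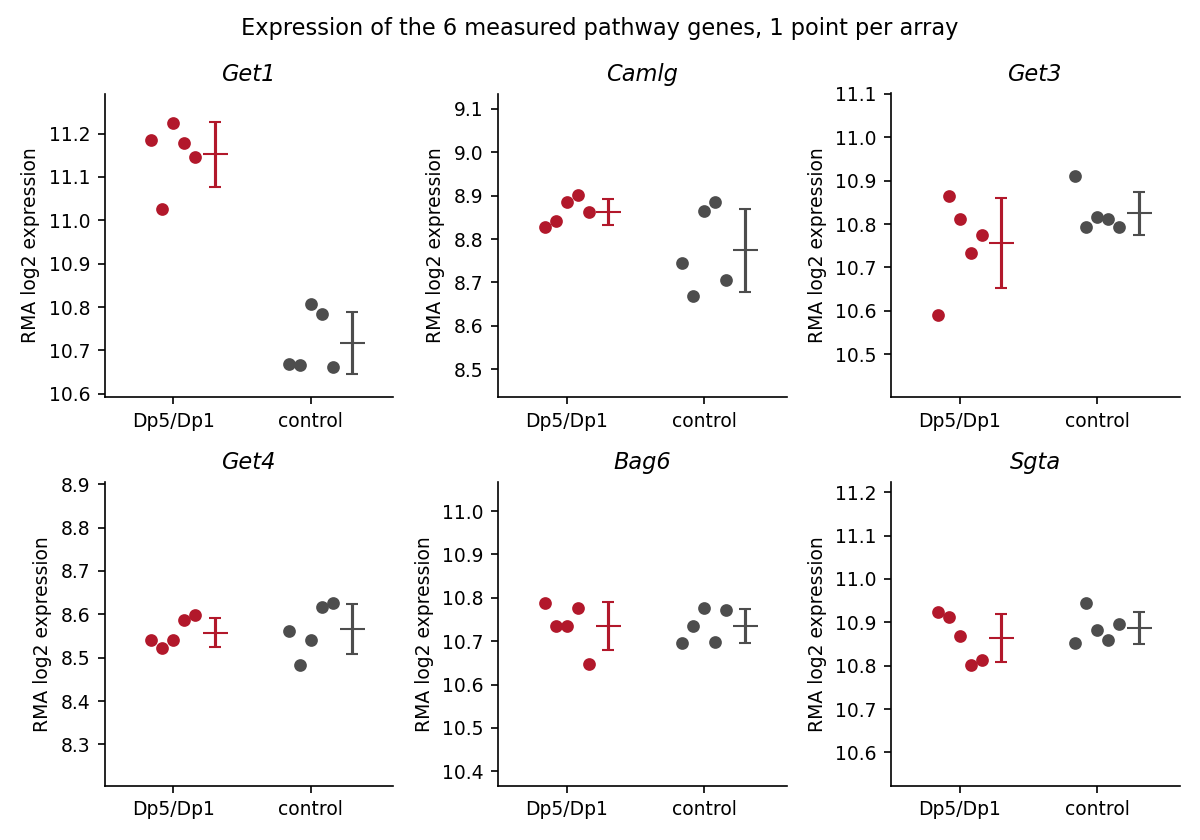
RMA log2 expression of the 6 measured pathway genes in Dp5/Dp1 (red) and control (grey) hippocampi, 1 point per array, with the group mean and SD beside the points (n = 5 each); all panels span the same range but start at different levels. Get1 is the only gene whose groups do not overlap, at 11.03 to 11.22 in Dp5/Dp1 and 10.66 to 10.81 in controls.

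The partner of Get1 in the receptor, Camlg, did not pass. Camlg (Caml in the annotation, chromosome 13, 55623005 to 55632416), which holds GET1 in the ER membrane and captures GET3, had log2 levels of 8.83, 8.84, 8.88, 8.90 and 8.86 in Dp5/Dp1 replicates 1 to 5, against 8.75, 8.67, 8.87, 8.88 and 8.71 in control replicates 1 to 5. The groups overlapped, since control replicates 3 and 4 reached the level of the Dp5/Dp1 arrays while the other 3 controls were lower. The difference was 0.09 ± 0.04 (SE; limma adjusted p = 0.825), with a 95% interval from -0.0067 to 0.19. The spread within groups was 0.03 in Dp5/Dp1 and 0.10 in controls (SD).

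The gap between both receptor subunits was compared directly. Levels of different probe sets cannot be set against each other, but a change of their gap between genotypes can be read. The log2 gap of Get1 minus Camlg was 2.36, 2.19, 2.34, 2.28 and 2.28 in Dp5/Dp1 replicates 1 to 5, against 1.92, 2.00, 1.94, 1.90 and 1.96 in control replicates 1 to 5. Every Dp5/Dp1 array had a wider gap than every control. As Get1 alone already separated the groups and Camlg differed by only 0.09, this gap largely restates the rise of Get1. The gap widened by 0.35 ± 0.03 (SE; exact two-sided permutation p = 0.00794, the smallest these 10 arrays allow, and 0.0159 after adjustment over the 2 gaps tested).

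**Figure D2:**
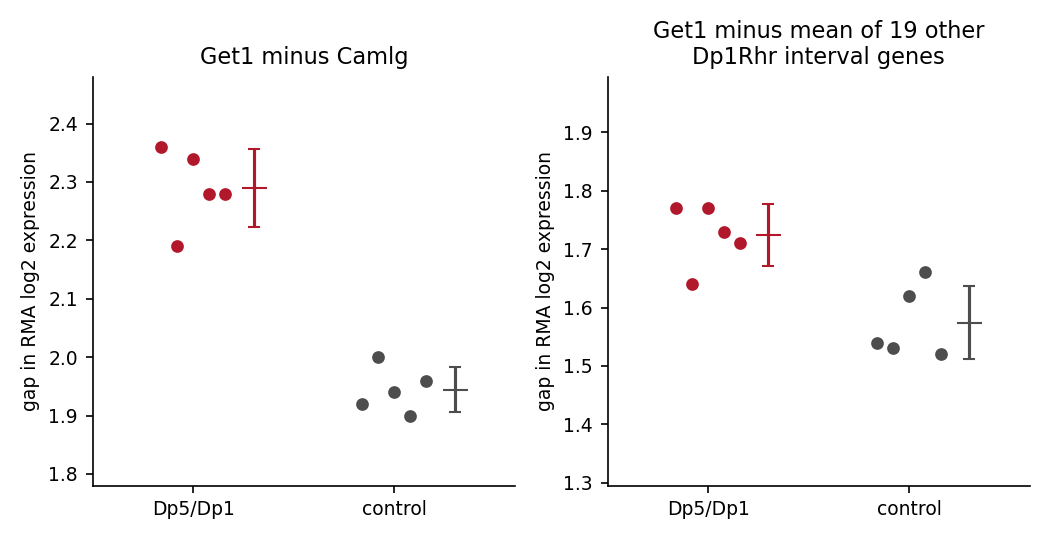
Gap in RMA log2 expression on each array between Get1 and Camlg (left) and between Get1 and the mean of 19 other genes of the Dp1Rhr interval (right), in Dp5/Dp1 (red) and control (grey) mice, with group mean and SD beside the points (n = 5 each). The Get1 to Camlg gap is 2.19 to 2.36 in Dp5/Dp1 and 1.90 to 2.00 in controls, while in the right panel 1 Dp5/Dp1 array (1.64) lies below the highest control (1.66).

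The soluble factors of the pathway did not pass either. Get3 (Asna1, chromosome 8, 85017929 to 85025287), the ATPase that carries the TA protein to the receptor, had log2 levels of 10.59, 10.86, 10.81, 10.73 and 10.78 in Dp5/Dp1 replicates 1 to 5, against 10.91, 10.79, 10.82, 10.81 and 10.79 in control replicates 1 to 5. Its groups overlapped, with Dp5/Dp1 replicate 1 the lowest array and control replicate 1 the highest. The difference was -0.07 ± 0.05 (SE; limma adjusted p = 0.862; 95% interval -0.18 to 0.04).

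Get4 (chromosome 5, 139252324 to 139270050), which links GET3 to the BAG6 complex, lay between 8.52 and 8.60 in Dp5/Dp1 and between 8.48 and 8.63 in controls, a difference of -0.0089 ± 0.03 (SE; limma adjusted p = 0.975; 95% interval -0.08 to 0.07). Bag6 (chromosome 17, 35135156 to 35147321), the scaffold that also sends failed membrane proteins to degradation, lay between 10.65 and 10.79 in Dp5/Dp1 and between 10.70 and 10.78 in controls, a difference of 0.00033 ± 0.03 (SE; limma adjusted p = 0.999; 95% interval -0.07 to 0.07). For both genes the spread within groups was larger than the difference, and its sign changed with the processing. Sgta (chromosome 10, 81044071 to 81060271), the co-chaperone at the start of the pathway, lay between 10.80 and 10.92 in Dp5/Dp1 and between 10.85 and 10.94 in controls, a difference of -0.02 ± 0.03 (SE; limma adjusted p = 0.939; 95% interval -0.10 to 0.05).

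Of the 6 measured members, limma thus called 1, against 0.206% of all genes tested. Of the 5 in 2 copies it called 0, and 0 had an unadjusted p under 0.05, against 6.06% of all genes. FCROS, the rank method of the study's methods, passed 0 of the 5 as well, against 5.06% of all genes. Their differences had a median of -0.0089, with 2 means higher and 3 lower in Dp5/Dp1, and a median over all genes of 0.0019. Their 95% intervals reached at most 0.19 upwards and -0.18 downwards, so that for none of the 5 did the interval hold the 0.43 of Get1.

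**Figure D3:**
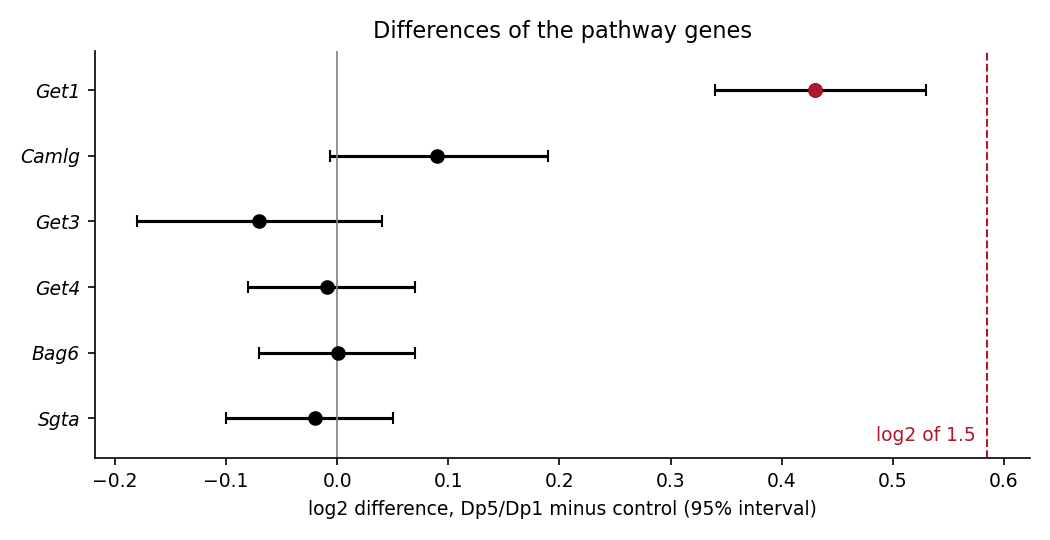
Log2 difference, Dp5/Dp1 minus control, of the 6 measured pathway genes with its 95% interval from limma (n = 5 arrays per group); the dashed line marks log2 of 1.5. Get1, at 0.43, stands apart from the other genes, which lie between -0.07 and 0.09.

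Get1 was then set among the genes that share its duplication. The interval from Cbr1 to Fam3b (chromosome 16, 93607837 to 97504936) held 31 genes tested, of which 12 rose by limma, with log2 differences from 0.27 to 0.49. Get1 ranked 3 of the 31 by the size of its difference, after Cbr3 (0.49 ± 0.06 SE), a carbonyl reductase, and Psmg1 (0.47 ± 0.08 SE), a proteasome assembly chaperone. Next in size after Get1 came Vps26c (0.43) and Morc3 (0.42). Beside Get1, 19 genes of the interval were not among the dimmest 40% of all genes, and their mean difference was 0.28. Called and uncalled genes were among them, with differences from 0.01 (Cldn14) to 0.49 (Cbr3). The gap between Get1 and the mean of these 19 genes was 1.72 ± 0.05 in Dp5/Dp1 and 1.57 ± 0.06 in controls (SD, n = 5 each), a change of 0.15 ± 0.04 (SE; exact two-sided permutation p = 0.0159, also 0.0159 after adjustment over the 2 gaps). Against all 30 other genes of the interval, dim ones included, the change was 0.24 (adjusted exact permutation p = 0.00794). Both sets hold uncalled genes, and a gap between Get1 and the called genes alone was not tested. The median difference of the 20 genes not among the dimmest 40%, Get1 included, was 0.33.

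The measured neighbours of Get1 gave mixed values. On the proximal side, Psmg1 averaged 8.80 ± 0.13 in Dp5/Dp1 and 8.33 ± 0.15 in controls (SD, n = 5 each; limma adjusted p = 0.0321). Brwd1, a bromodomain protein of chromatin, averaged 8.75 ± 0.09 in Dp5/Dp1 and 8.40 ± 0.10 in controls (SD, n = 5 each), a difference of 0.35 ± 0.05 (SE; limma adjusted p = 0.0197). When 1 array was left out, the differences stayed at 0.42 to 0.52 for Psmg1 and 0.32 to 0.39 for Brwd1, while the adjusted p crossed the threshold. Psmg1 passed only without Dp5/Dp1 replicate 5 or control replicate 3, with its other adjusted p reaching 0.124, and Brwd1 was lost without Dp5/Dp1 replicate 2, 3 or 5 or control replicate 3 or 4, with an adjusted p of up to 0.0757. Without Dp5/Dp1 replicates 2 and 5 the differences were 0.54 for Psmg1 (limma adjusted p = 0.066) and 0.37 for Brwd1 (limma adjusted p = 0.134).

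Hmgn1, a nucleosome-binding protein whose gene ends 17675 bases before Get1, had a difference of 0.23 ± 0.06 (SE; limma adjusted p = 0.412), with 4 of 5 Dp5/Dp1 arrays above all controls. On the distal side, Lca5l begins 554 bases after the end of Get1. It was at 5.26 ± 0.03 in Dp5/Dp1 and 5.28 ± 0.07 in controls (SD, n = 5 each), a difference of -0.02 ± 0.04 (SE; limma adjusted p = 0.959). Sh3bgr was at 5.57 ± 0.02 in Dp5/Dp1 and 5.49 ± 0.06 in controls (SD, n = 5 each; limma adjusted p = 0.824). Lca5l and Sh3bgr were among the dimmest 40% of genes, where RMA draws differences towards 0. B3galt5, a galactosyltransferase, had a difference of 0.17 ± 0.08 (SE; limma adjusted p = 0.824).

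**Figure D4:**
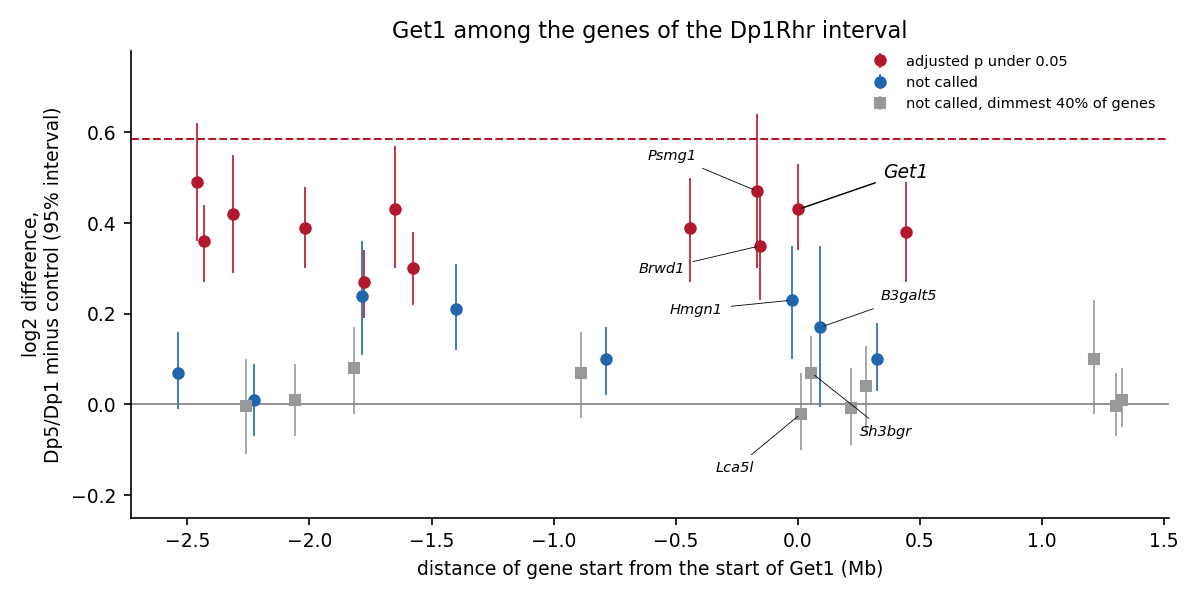
Log2 difference, Dp5/Dp1 minus control, with its 95% interval for the 31 tested genes of the Dp1Rhr interval, by distance of each gene's start from that of Get1 (Mb); red marks an adjusted p under 0.05, grey squares genes among the dimmest 40%, and the dashed line log2 of 1.5. Get1 lies at 0.43. Its proximal neighbours are Psmg1 (0.47), Brwd1 (0.35) and Hmgn1 (0.23). Its distal neighbours are Lca5l (-0.02) and Sh3bgr (0.07), both among the dimmest 40%, and B3galt5 (0.17).

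The genes most like Get1 across the 10 arrays were themselves triplicated. The highest Pearson correlations with Get1 belonged to Ets2 (0.98), an ETS transcription factor of the Dp1Rhr segment, and to Gart (0.98), Rcan1 (0.97), Cfap298 (0.97) and Ifnar2 (0.97) of the Dp5Yah segment. These values largely restate that all of them were higher in Dp5/Dp1. After removal of the group means, which leaves the variation between mice of 1 genotype, the highest correlations belonged to Brf2 (0.96), Slc30a7 (0.92), Pik3r4 (0.92), Gnrhr (0.92) and Pdcl3 (0.91), none of them in a duplicated segment. Among the pathway members the same measure was 0.72 for Camlg, 0.19 for Get4, 0.15 for Bag6, -0.32 for Sgta and -0.38 for Get3. Over 10 arrays and 19938 genes such values are a description only.

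The machinery around the pathway was examined next, in 5 lists with 89 genes, of which 79 were measured and lie outside the duplications. limma called 0 of the 79, against 0.206% of all genes, and 3 had an unadjusted p under 0.05 (1 higher, 2 lower), against 6.06% of all genes. FCROS passed 6 of the 79 (4 higher, 2 lower), against 5.06% of all genes. The median difference was 0.01, against 0.0019 over all genes, and single genes ran from -0.13 to 0.17.

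Paralogues and quality control factors came closest to the pathway itself. Of 11 measured genes, 0 passed, 7 had a higher and 4 a lower mean in Dp5/Dp1, and the median difference was 0.02. Sgtb, the paralogue of Sgta that is enriched in neurons, averaged 10.71 ± 0.06 in Dp5/Dp1 and 10.57 ± 0.07 in controls (SD, n = 5 each). Its difference was 0.14 ± 0.04 (SE; limma adjusted p = 0.641), with 4 of 5 Dp5/Dp1 arrays above all controls. Atp13a1, an ATPase that removes misplaced mitochondrial anchors from the ER, had a difference of -0.06 ± 0.05 (SE), and Hspa8, the constitutive HSP70 chaperone, of -0.03 ± 0.03 (SE).

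The ER membrane protein complex (EMC) is another route for TA proteins and takes those with weakly hydrophobic anchors. All 9 measured subunits had a higher mean in Dp5/Dp1, where 10272 of all 19938 genes did, but by a median of only 0.03, and 0 passed. The smallest difference, that of Emc9, was 8.8e-05, and this gene was among the dimmest 40% of all genes. The lowest unadjusted p belonged to Emc7 (0.07 ± 0.04 SE; limma adjusted p = 0.83), Mmgt1 (0.06 ± 0.04 SE) and Emc8 (0.07 ± 0.05 SE). Emc1 was not measured, since its probe set is shared with Ubr4.

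The signal recognition particle and the Sec61 translocon serve proteins with an anchor or signal nearer the start of the chain. Of 16 measured genes, 8 had a higher and 8 a lower mean, with a median difference of 0.0041, and 0 passed. Ssr3, a subunit of the translocon-associated complex, averaged 10.27 ± 0.04 in Dp5/Dp1 and 10.38 ± 0.06 in controls (SD, n = 5 each), a difference of -0.11 ± 0.04 (SE; limma adjusted p = 0.734). Sec63 (-0.05 ± 0.03 SE) and Tram1 (-0.09 ± 0.06 SE), both of the translocon, followed.

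The clients of the pathway were the last group. Of 31 measured TA proteins of the secretory pathway, 16 had a higher and 15 a lower mean, with a median difference of 0.0032, and 0 passed. Ptpn1, a phosphatase anchored in the ER, had a difference of -0.13 ± 0.05 (SE; limma adjusted p = 0.806), Stx8, a syntaxin of endosomes, of 0.12 ± 0.06 (SE; limma adjusted p = 0.824), and Bet1, a SNARE of transport between ER and Golgi, of 0.09 ± 0.05 (SE; limma adjusted p = 0.826). Vamp1, another SNARE, had the largest difference of the list, 0.17 ± 0.09 (SE; limma adjusted p = 0.826), with 3 of 5 Dp5/Dp1 arrays above all controls. Vamp2, a SNARE of synaptic vesicle release, had no probe set of its own and was not measured. Of 12 measured TA proteins of the mitochondrial outer membrane, most of which are inserted without the GET receptor, 8 had a higher and 4 a lower mean, with a median difference of 0.0082, and 0 passed. Bcl2l1, an inhibitor of apoptosis, was at -0.08 ± 0.05 (SE), and Tomm7 (0.14 ± 0.09 SE) and Tomm6 (0.04 ± 0.03 SE) are small subunits of the import pore.

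**Figure D5:**
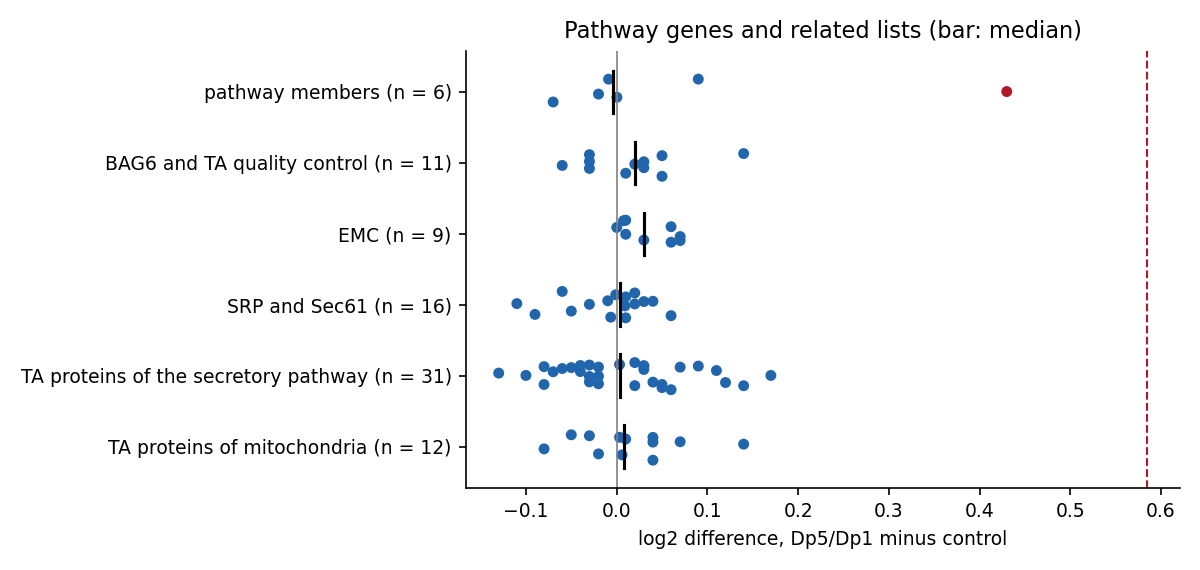
Log2 difference, Dp5/Dp1 minus control, of each measured gene (point) in the pathway and in 5 related lists, with the list median (bar) and log2 of 1.5 (dashed line). Get1 (red, 0.43) lies outside the range of the 79 genes of the related lists, which run from -0.13 to 0.17.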

How the data were processed

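Total RNA (200 ng per the labels) of the hippocampus of 10 mice was hybridised to Affymetrix Mouse Gene 1.0 ST arrays. The values deposited by the authors are log2 expression after RMA, which corrects background, equalises the distribution of all arrays by quantiles and gives 1 value per probe set, and which draws dim probe sets together. RMA, limma and mm10 are named in the submitters' processing notes, with versions not given in the sources used here. Of 35556 probe sets, 21789 had 1 gene symbol, 1621 several and 12146 none in the platform annotation. Symbols and positions came from the RefSeq table of GRCm38, in which 21698 of the single-symbol probe sets were found. The probe set with the highest mean was read for each gene, which left 19938 genes. Each measured member had 1 probe set. Array medians lay between 6.73 and 6.80, and no arrays were identical.

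Groups came from the condition label. Genotypes were compared with limma 3.58.1 under R 4.3.3, using lmFit and eBayes in a two-sided test with Benjamini-Hochberg adjustment over all genes, and "called", "rose" and "passed" refer to an adjusted p under 0.05. Gaps between genes were tested by exact permutation over the 252 assignments of the arrays. Members and lists were chosen with earlier results of these data known. The named genes were the members, the 3 measured genes on each side of Get1, the 3 with the lowest p of each list without a call, and the 5 most correlated with Get1, without predicted gene models. Cbr3, Vps26c, Morc3, Cldn14, Emc9 and Vamp1 were named after their values were seen. The alternatives comprised a filter that dropped the dimmest 40% of genes, a new quantile normalization, centring, other probe set rules, variance models, array weights, a replicate block, marker covariates, leaving out arrays, and FCROS, rewritten from its description and possibly unlike the package. The fit was tested on simulated data for Dp5/Dp1 versus control over 19938 genes, where limma recovered 41 of 50 genes raised by 0.3, 33 of 50 lowered by 0.3, 47 of 50 raised by 0.6 and 49 of 50 lowered by 0.6, with 6 false calls. Smaller changes were not simulated, and the noise was drawn independently for each gene, without variation shared between genes. The number of arrays limits the precision.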

Additional observations from a re-analysis of the deposited data

Results flagged for a closer look

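Among 66 groups of 5 arrays looked at for a single distant array, 3 were singled out, and chance alone does so in about 1 of 20 groups. Get3 had a high array among the controls, replicate 1 at 10.91, with the other 4 between 10.79 and 10.82. Mmgt1, a subunit of the EMC, had a low control array, replicate 2 at 9.55, with the others between 9.69 and 9.75. The mean of the medial habenula markers was high in control replicate 3, at 7.05, with the other controls between 6.52 and 6.61.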

How the results depend on the processing

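The difference of Get1 kept its direction and its call in all 22 alternatives, with values of 0.42 to 0.48 and an adjusted p of 0.000219 to 0.00712. The count of members called was 1 in each of them. Camlg (0.06 to 0.12), Get3 (-0.11 to -0.03) and Sgta (-0.04 to -0.0074) kept their direction and were called in none. Get4 and Bag6 were near 0 and changed sign. Get4 was at 0.0033 with choroid plexus markers as a covariate and 0.01 with medial habenula markers added, and Bag6 at -0.0054 with arrays centred on genes outside the intervals and -0.01 with the choroid plexus covariate. When 1 array was left out, Get4 ran from -0.03 to 0.0063 and Bag6 from -0.01 to 0.02. All genes called numbered 41, against 26 with the replicate block, 27 with both marker covariates, 21 without Dp5/Dp1 replicates 2 and 5 and 1008 by FCROS, and 29 to 39 when 1 array was left out. Related genes called numbered 0 in every fit of limma and 6 by FCROS (Sgtb, Stx8, Tomm7 and Vamp1 higher, Ssr3 and Ptpn1 lower). With the replicate number as a block, here a permutation of signs within numbers, the gaps stayed at 0.35 (Camlg) and 0.15 (Dp1Rhr genes) with p = 0.0625, the smallest an exact test of 5 pairs can give. Replicate numbers were not shown to pair the mice, since the correlation of deviations between arrays of 1 number ran from -0.35 to 0.29 and 1 of 5 arrays matched its own number best. Under this block the differences of Psmg1 (0.47) and Brwd1 (0.35) were as before but did not pass (adjusted p = 0.121 and 0.135), and Get1 remained called. Against the per-array median level of the 19 Dp1Rhr genes, which reads only the gene of middle level, the gap changed by 0.35. The cause of these changes was not tested.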
